A study of Mus musculus with 16 samples.

Results

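Stk32b, Mrfap1, Nelfa and Tmem128 lie around Htt, the huntingtin gene, on mouse chromosome 5, and their transcripts were measured in brain and liver of mice that carry an expanded repeat in Htt. These 4 genes are 4 of 9026 named genes on the array. They were taken by symbol from the annotated genes near the knocked-in locus, with earlier results of these data known. The symbols were attached to the values with a row offset that was itself settled from measured values, so the ratios of the 4 genes are given as a description, with no p-value. Tests over the whole array are given as background only. Together they had 8 probes: 4 for Nelfa, 2 for Mrfap1 and 1 each for Stk32b and Tmem128. Of the 128 array values these probes could have, 122 were present.

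The mutant group consisted of 4 male HdhQ111/+ heterozygotes, which have a knock-in allele with an expanded CAG repeat in Htt and 1 wildtype allele. They were of strain C57BL/6J and 18 weeks old. The control was wildtype C57BL/6J RNA, pooled from 4 males of the same age, with 1 pool for brain and 1 for liver. Each mutant RNA was hybridised against the pool of its tissue on a pair of 2-colour arrays with the dyes swapped, which gave 8 arrays per tissue and 16 in all, and the same 4 mutant mice gave both tissues. A pool is 1 control sample, so the spread among wildtype mice is not in any error given here. Values are log2 ratios, likely HdhQ111 over wildtype, and a mouse's value is the mean of its dye-swapped pair. Each array gave 19530 to 20584 values. Ratios hold no level, so neither the tissues' defining markers nor signal over background could be checked from them. In brain, all 5 measured pituitary markers lay below 0, with a median of -2.75 against 0.02 over all 8621 genes. Their part in the brain values of the 4 genes was not tested.

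The 4 genes were not chosen for a shared function. Nelfa encodes a subunit of the negative elongation factor, NELF, which holds RNA polymerase II shortly after it has started a transcript. Mrfap1 encodes a small protein that binds proteins of the MORF4 family, which belong to chromatin complexes. Stk32b encodes a serine/threonine kinase of the STK32 family, also called YANK, about which little is known. Tmem128 encodes a membrane protein whose function is not established. What they share is their place: DNA close to a selected allele tends to be inherited with it, so the neighbours of an engineered gene are a common check in such lines. In the RefSeq order of annotated genes (GRCm38.p6), Nelfa stands 27 genes before Htt, Mrfap1 51 genes after it, Stk32b 67 and Tmem128 80. No named probe of Htt itself was analysed here.

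The stretches before the starts of Stk32b, the gene with the clearest shift in brain, and Mrfap1, the gene whose probes disagreed, are shown because the neighbours differ in this sequence. Each is the 250 bases before the annotated start, read 5′ to 3′ on the gene's strand from RefSeq (GRCm38.p6), with every CG dinucleotide in capitals. The Stk32b stretch is chr5:37717154-37717403 and the Mrfap1 stretch is chr5:36796755-36797004, both on the minus strand.
Stk32b: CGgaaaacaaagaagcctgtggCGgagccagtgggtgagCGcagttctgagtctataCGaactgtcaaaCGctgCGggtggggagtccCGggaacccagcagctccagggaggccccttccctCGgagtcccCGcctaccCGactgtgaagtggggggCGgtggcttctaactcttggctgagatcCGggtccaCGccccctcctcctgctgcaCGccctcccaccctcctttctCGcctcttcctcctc
Mrfap1: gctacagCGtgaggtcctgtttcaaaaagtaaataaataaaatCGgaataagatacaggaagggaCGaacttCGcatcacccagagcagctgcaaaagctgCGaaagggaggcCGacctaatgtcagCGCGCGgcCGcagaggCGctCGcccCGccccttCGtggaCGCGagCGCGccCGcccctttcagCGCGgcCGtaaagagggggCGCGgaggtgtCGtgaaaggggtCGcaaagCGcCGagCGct
Mrfap1 had 29 CG dinucleotides and Stk32b 15, while Nelfa had 28 and Tmem128 had 9. Over all 32851 RefSeq promoter stretches of this length, the median was 6. The G and C share was 60.8% for Mrfap1, 64.4% for Stk32b, 64.8% for Nelfa and 52.8% for Tmem128, against a median of 52.4%. The letters GGGCGG, on either strand, were found in Nelfa (2), Mrfap1 (2) and Stk32b (1) and in 32.7% of all stretches. TATAAA, present in 12.4% of all stretches on either strand, and CCAAT, present in 33.8%, were in none of these 4. These are matches of letters only, and GGGCGG contains a CG.

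Every name rests on the row offset, so it was examined again. With the symbol of annotation probe number n given to value row n + 11, probes of ribosomal, proteasome, respiratory chain and chaperonin genes had less scatter over the arrays than other probes. Their score, which is 0 when their scatter ranks are average, was 0.192 at offset 11 over 232 probes, 0.0141 at offset 0 and at most 0.0609 at any other of the 121 offsets tried. Where a gene had probes 50 or more rows from each other, the mean correlation of such a pair was 0.0522 with offset 11 (4663 pairs), 0.0101 with offset 0 and no more than 0.0222 with any other. By the scatter score, offset 11 was also best in each of 4 stretches of the array, and the pair correlation was not split this way. The scan used the values of these same arrays, so it is not an independent check. No source states this offset.

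**Figure D1:**
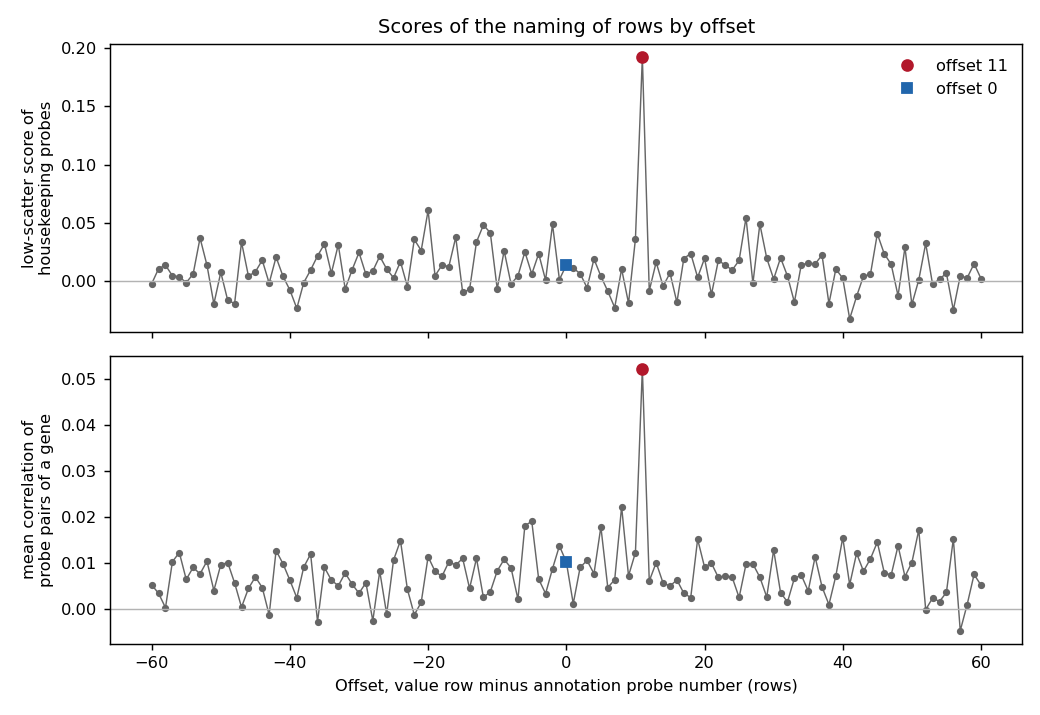
Scores for the naming of rows at offsets from -60 to 60 rows, with offset 11 as a red circle and offset 0 as a blue square. The upper panel shows the low-scatter score of housekeeping probes and the lower panel the mean correlation between probes of the same gene. Both peak at offset 11, at 0.192 and 0.0522.

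Stk32b was lower in brain on every array that measured it. The arrays with HdhQ111 RNA in Cy5 gave -3.47, -1.31, -1.15 and -0.61 for mice 1 to 4. With the dyes swapped, mice 2 to 4 gave -0.51, -0.15 and -0.10, and the array of mouse 1 had no value. All 7 arrays thus lay below 0, which 0.202% of the 19325 probes tested in brain did, and the Cy5 arrays lay lower than the Cy3 array of the same mouse in each of the 3 pairs. The mouse values were -0.91, -0.65 and -0.36 for mice 2 to 4, with a mean of -0.64 ± 0.28 (SD, n = 3 mice). Of all brain probes tested, 2.88% had a lower mean. Every mouse below 0 was seen for 5.7% of brain probes. Of the 19325 probes, 16607 had all 4 mice, while Stk32b had 3. A shared sign is easier to reach with fewer values, so both shares compare unlike numbers of mice and arrays. Mouse 1 entered with no value because its pair was incomplete, and keeping its single array gave -1.35 ± 1.43 (n = 4). On the Cy3 arrays alone the mean was -0.25 (n = 3) and on the Cy5 arrays alone -1.64 (n = 4). Mouse 1 accounts for part of that gap, since the Cy5 arrays of mice 2 to 4 had a mean of -1.02 (n = 3).

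In liver, Stk32b lay on both sides of 0. Its arrays with HdhQ111 RNA in Cy5 gave -0.95, 0.00, -0.71 and 0.10, and those with it in Cy3 gave 1.83, 1.58, 0.20 and -0.01. The mouse values were 0.44, 0.79, -0.26 and 0.05, with a mean of 0.26 ± 0.46 (SD, n = 4 mice). Mouse 3 was below 0 and the others above, and the spread over mice was larger than the mean. The orientations differed in sign, at -0.39 in Cy5 and 0.90 in Cy3. Within the 3 mice with both values, liver exceeded brain by 1.70, 0.40 and 0.40, with a mean difference of 0.83 ± 0.75 (SD, n = 3 mice). All 3 differences were above 0, and mouse 2 had the largest. The share of all probes with liver above brain in every mouse is not given here. As background, the liver-minus-brain difference passed limma's test for 1 of the 19055 probes of the array (0.00525%). Stk32b was not that probe.

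The measured genes beside Stk32b, chosen by position and, except Msx1, outside the rule for named genes, showed no common brain shift. On the side of Htt, Evc2 was at 0.07 ± 0.36, Evc at 0.33 ± 0.92 and Crmp1, a cytosolic protein of growing axons, at 0.22 ± 1.03 in brain (SD, n = 4 mice). On the far side, the homeobox gene Msx1 was at 0.06 ± 1.01, Stx18, a syntaxin of the endoplasmic reticulum, at -0.04 ± 0.14 and Nsg1 at 0.08 ± 0.21. All 6 means lay within their spread of 0, and those of Crmp1, Evc and Msx1 had a wide one. The other measured kinase of the family, Stk32c, was at -0.13 ± 0.30 in brain and 0.06 ± 0.09 in liver, with mice on both sides of 0 in each tissue. Stk32a was not analysed here.

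**Figure D2:**
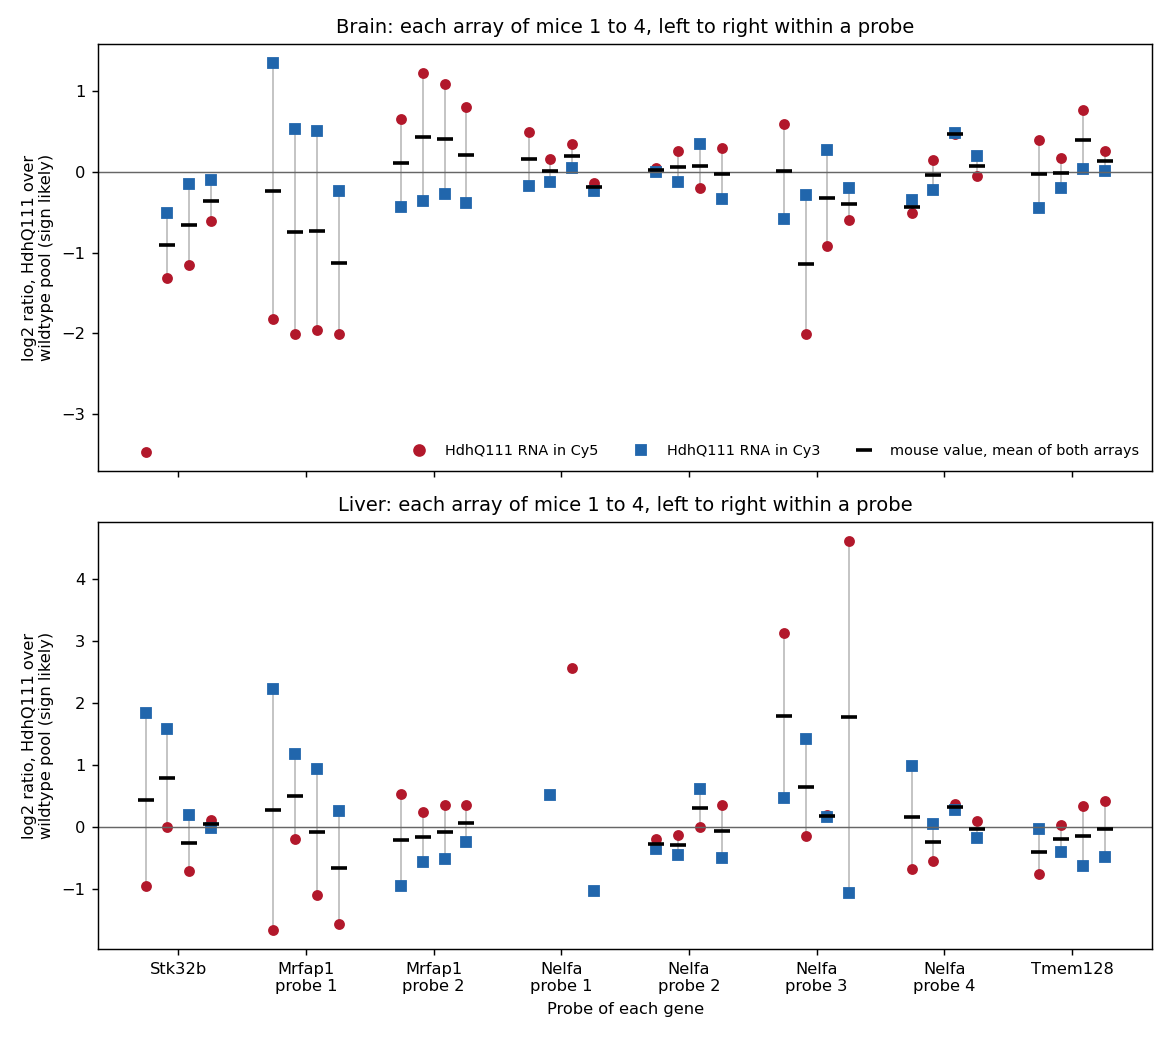
Log2 ratio of each array (HdhQ111 over wildtype pool, sign likely) for the 8 probes, brain above and liver below, with mice 1 to 4 from left to right within a probe. Red circles are arrays with HdhQ111 RNA in Cy5, blue squares those with it in Cy3, grey lines join a pair and black bars are mouse values. All 7 Stk32b arrays lie below 0 in brain, while the circles and squares of Mrfap1 probe 1 lie far apart in both tissues.

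Mrfap1 was measured by 2 probes that gave opposite signs in brain. Probe 1 gave -1.83, -2.01, -1.96 and -2.01 for mice 1 to 4 with HdhQ111 RNA in Cy5, but 1.35, 0.53, 0.50 and -0.24 with it in Cy3. Its mouse values were -0.24, -0.74, -0.73 and -1.12, with a mean of -0.71 ± 0.36 (SD, n = 4 mice), and all 4 mice were below 0. Probe 2 gave 0.66, 1.23, 1.09 and 0.81 in Cy5 and -0.44, -0.36, -0.27 and -0.38 in Cy3. Its mouse values were 0.11, 0.44, 0.41 and 0.21, with a mean of 0.29 ± 0.16, and all 4 mice were above 0. A value above 0 in every mouse was seen for 6.78% of brain probes. The mouse values of the 2 probes did not overlap. Of the 1864 genes with 2 tested probes in brain, 95.1% had a smaller difference between the probe means, although opposite signs were common (47.2% of them). Averaged over both probes, Mrfap1 was at -0.21 ± 0.17, with all 4 mice below 0, a mean that neither probe shows.

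In liver both Mrfap1 probes lay near 0. Probe 1 gave -1.66, -0.19, -1.10 and -1.57 in Cy5 and 2.22, 1.17, 0.93 and 0.26 in Cy3. The mean of its mouse values was 0.01 ± 0.50 (SD, n = 4 mice), with 2 mice on each side. Probe 2 gave 0.52, 0.24, 0.35 and 0.35 in Cy5 and -0.95, -0.57, -0.53 and -0.24 in Cy3, for a mean of -0.10 ± 0.12 with 3 of 4 mice below 0. In each probe all Cy5 arrays lay on one side of 0 and all Cy3 arrays on the other.

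The dye moved these probes more than the genotype ratio did. The dye deviation, the distance of the Cy5 array from the mouse value, was -1.24 ± 0.29 (SD, n = 4 mice) in brain and -1.14 ± 0.55 in liver for Mrfap1 probe 1. For probe 2 it was 0.65 ± 0.11 and 0.47 ± 0.19. The median size over all probes was 0.22 in brain and 0.21 in liver. Of brain probes, 96.4% had a smaller deviation than probe 1 and 88.2% a smaller one than probe 2. Among the 4 genes, the dye deviation exceeded the mean in size for 5 of 8 probes in brain and 6 of 7 in liver. It did so for 66.7% of all brain probes tested and 64.6% of all liver probes, and the median size of a mean was 0.12 and 0.14, so this was usual on these arrays.

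Over all probes, the mean ratio and the dye deviation correlated with Spearman's rho 0.189 in brain (19325 probes) and -0.265 in liver (20127 probes), where both measures are built from the same arrays and probes are not independent replicates. The sign of the mean matched that of the dye deviation for 7 of the 8 probes of the 4 genes in brain and for 1 of 7 in liver, against 59.3% and 38.9% of all probes tested. With a linear trend on the dye deviation removed for each mouse, an alternative chosen after the data were seen, Stk32b in brain was at -0.59 ± 0.25 (n = 3) and all 3 mice stayed below 0. Mrfap1 probe 1 was then at -0.59 ± 0.37 and probe 2 at 0.23 ± 0.12, and their signs in brain still differed. Stk32b in liver was at 0.17 ± 0.45.

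**Figure D3:**
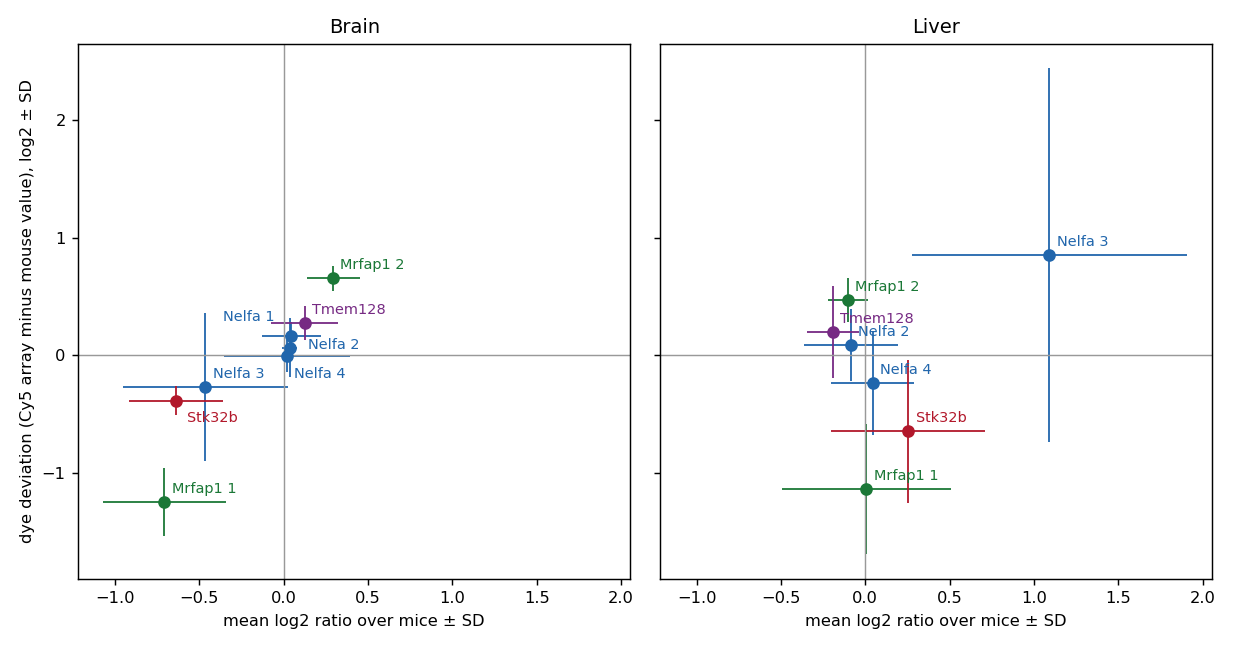
Mean log2 ratio over mice (x axis) against the dye deviation (y axis, Cy5 array minus mouse value, log2) for each probe of the 4 genes with values from at least 3 mice, brain left and liver right; bars are SD over mice and numbers are probes. In brain, Mrfap1 probe 1 lies at -0.71 and -1.24 and probe 2 at 0.29 and 0.65, while in liver both lie near 0 on the x axis.

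Mrfap1's partner list, proteins of the MRG and NuA4 chromatin complexes, had 3 of 7 genes measured. Morf4l1 and Morf4l2 were on the list but not among the 3. In brain all 3 were above 0 in every mouse, whereas 6.6% of the named genes were. The acetyltransferase Kat5 was at 0.14 ± 0.07 (SD, n = 4 mice), Epc1 at 0.28 ± 0.13 and the retinoblastoma gene Rb1 at 0.13 ± 0.07. The brain dye deviation exceeded the mean in size for Kat5 (0.25) and Rb1 (0.42), whose Cy3 means thus lay below 0, but not for Epc1 (0.02). In liver, Kat5 was at 0.26 ± 0.39, Epc1 at -0.24 ± 0.47 and Rb1 at -0.13 ± 0.27. Each of the 3 had liver mice on both sides of 0. 

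Nelfa stayed near 0 in brain on 3 of its 4 probes. Probes 1, 2 and 4 averaged 0.05 ± 0.17, 0.04 ± 0.04 and 0.02 ± 0.37 (SD, n = 4 mice), and each had mice on both sides of 0. The spread of probe 2 was small, and 0.435% of brain probes had a smaller one. Probe 3 stood apart: its Cy5 arrays gave 0.59, -2.01, -0.92 and -0.60 and its Cy3 arrays -0.58, -0.29, 0.28 and -0.20. Its mean was -0.46 ± 0.49, with mouse 1 at 0.01 and the others below 0. Averaged over the 4 probes, Nelfa in brain was at -0.09 ± 0.16, with 3 of 4 mice below 0. Without probe 3 the average was 0.03 ± 0.15, so the sign of the brain mean rests on that probe.

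In liver, the Nelfa average of 0.35 ± 0.25 (SD, n = 4 mice) came from probe 3. That probe gave 3.12, -0.14, 0.19 and 4.60 in Cy5 and 0.46, 1.42, 0.16 and -1.07 in Cy3. Its mouse values were 1.79, 0.64, 0.17 and 1.76, with a mean of 1.09 ± 0.81 and every mouse above 0, as for 8.43% of liver probes. The pairs of mice 2 and 4 thus differed in sign between the orientations, and mouse 3 was close to 0. Probes 2 and 4 were at -0.09 ± 0.28 and 0.05 ± 0.25, with mice on both sides of 0. Probe 1 had 3 of 8 liver arrays and no complete pair. Without probe 3, chosen after its values were seen, the liver average was -0.02 ± 0.24.

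The pausing list, which holds the other NELF subunits and factors that act with them, had 9 of 11 genes measured, and no gene lay on one side of 0 in all brain mice. In brain 4 were above 0 and 5 below, from -0.13 to 0.20, with a median of -0.01. The subunits Nelfb, Nelfcd and Nelfe were at 0.04 ± 0.30, -0.07 ± 0.60 and 0.03 ± 0.39 (SD, n = 4 mice). In liver 3 were above 0 and 6 below, with a median of -0.09 against -0.03 over all 8828 genes. Supt5, a subunit of the pausing factor DSIF, was below 0 in all 4 liver mice, at -0.26 ± 0.28. This was 1 of 9 genes (11.1%), while 14.1% of all named genes did the same. The kinase Cdk9, which releases paused polymerase, was at 0.08 ± 0.28 in brain and 0.25 ± 1.04 in liver.

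Tmem128 was near 0 in brain and below 0 in all 4 liver mice. Its brain arrays gave 0.40, 0.17, 0.77 and 0.26 in Cy5 and -0.45, -0.20, 0.03 and 0.01 in Cy3. The brain mouse values were -0.02, -0.02, 0.40 and 0.14, with a mean of 0.12 ± 0.20 (SD, n = 4 mice). The liver arrays gave -0.77, 0.03, 0.34 and 0.42 in Cy5 and -0.04, -0.41, -0.63 and -0.49 in Cy3. The liver mouse values were -0.40, -0.19, -0.14 and -0.03, with a mean of -0.19 ± 0.15. In liver, 12.7% of probes had every mouse below 0. All 4 Cy3 arrays were below 0, with a mean of -0.39, while the Cy5 arrays lay on both sides, with a mean of 0.01. Mouse 1, the lowest, owed its value to its Cy5 array.

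Ordered by their means over probes, the genes in brain ran from Stk32b (-0.64) through Mrfap1 (-0.21) and Nelfa (-0.09) to Tmem128 (0.12). Stk32b, with values from 3 mice, overlapped neither Nelfa nor Tmem128. Its highest mouse, at -0.36, lay above the lowest Mrfap1 mouse, at -0.45. How often genes of the array lie apart in this way was not counted. Mrfap1, Nelfa and Tmem128 overlapped over mice with their neighbours in this order. The place of Mrfap1 is that of an average: its probe 1 (-0.71) lay below Stk32b and its probe 2 (0.29) above Tmem128. In liver the order was Tmem128 (-0.19), Mrfap1 (-0.05), Stk32b (0.26) and Nelfa (0.35), and every neighbouring pair overlapped. With the sign of the ratios turned, both orders would run the other way. Ratios against a pool give no levels, so the order is one of differences only.

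Pearson's r over the mouse values of both tissues picked the genes whose pattern was most like each of the 4. The points share 4 mice and 2 pools, and with 7 or 8 values high coefficients arise often among 7612 to 8446 genes. For Stk32b these were Asxl2 (r = 0.96), a chromatin regulator, 1190005I06Rik (0.96) and Txndc16 (0.96), each over 7 values. Asxl2 was at -0.31 ± 0.22 in brain and 0.33 ± 0.18 in liver (SD, n = 4 mice). The other 2 had brain mice on both sides of 0, with 1190005I06Rik at -0.05 ± 0.34 and Txndc16 at 0.035 ± 0.29. Their liver means were 0.33 ± 0.20 and 0.33 ± 0.16. Mouse 1, for which Stk32b had no brain value, was at 0.38 and 0.46 in brain. For Mrfap1 they were Prss50 (0.97), Purg (0.94) and Prap1 (0.93), and for Nelfa Ncapd2 (0.96), Nudt6 (0.96) and Itsn2 (0.93). The patterns of Mrfap1 and Nelfa are averages over probes that differed from each other. For Tmem128 they were C130074G19Rik (0.98), Atp5k, a subunit of ATP synthase (0.98), and the motor Myo5a (0.98).

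The wider neighbourhood of Htt showed no common shift. Among the 100 annotated genes on each side, 62 others were on the array, and 61 had values from at least 3 mice in each tissue. In brain 37 of the 61 were above 0 and 24 below, with a median of 0.06 against 0.02 over all genes. In liver 29 were above and 32 below, with a median of -0.01 against -0.03 over all genes. The median over genes in single mice ran from -0.17 to 0.15 in brain and from -0.05 to 0.02 in liver. The median size of a gene's mean was 0.11 in brain, the same as over all genes, and 0.09 in liver against 0.13.

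In brain, 3 of the 61 neighbours were below 0 in every mouse (4.65% of all named genes) and 3 above (6.6%). Those below were Slc5a1, a sodium-glucose transporter, at -0.96 ± 0.85 (SD, n = 4 mice), the growth factor receptor Fgfr3 at -0.15 ± 0.12 and Mxd4 at -0.10 ± 0.16. Those above were Dok7, an adaptor of the neuromuscular junction, at 0.32 ± 0.29, Babam2 at 0.14 ± 0.13 and Tnip2 at 0.14 ± 0.12. In liver, 3 were below in every mouse (14.1% of all named genes) and 3 above (7.17%). Those below were Hgfac, a protease made by hepatocytes, at -0.24 ± 0.18, the receptor-associated protein Lrpap1 at -0.19 ± 0.14 and the adducin Add1 at -0.15 ± 0.09, which stand 4, 6 and 7 genes from Htt. They were 17.6% of the 17 measured genes among the nearest 25 on each side, near the 14.1% of all named genes. Those above were Ccdc96 at 0.39 ± 0.46 (n = 3), Fgfr3 at 0.14 ± 0.11 and Psapl1 at 0.07 ± 0.04. Babam2, Fgfr3 and Psapl1 were chosen by this count, after their values were seen. In brain the dye deviation exceeded the mean in size for Slc5a1 (-1.13), Mxd4 (0.17) and Babam2 (0.27), but not for Fgfr3, Dok7 and Tnip2. In liver it did so for Hgfac (0.34), Lrpap1 (0.23), Fgfr3 (-0.60) and Psapl1 (0.27), but not for Add1 and Ccdc96. Where it did, the means of the 2 dye orientations differed in sign. A count of 3 is 4.92% of the 61, which lay near the share of all named genes in brain and, for genes below 0 in liver, under it.

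The nearest 25 genes on each side held 17 measured genes. In brain 8 were above 0 and 9 below, with a median of -0.01, and in liver 5 were above (29.4%) and 12 below, with a median of -0.07. Of all named genes, 43.2% were above 0 in liver, with a median of -0.03. Among them Grk4 and Rgs12, both of G protein signalling and each 2 genes from Htt, were at -0.04 ± 0.52 and 0.02 ± 0.19 in brain (SD, n = 4 mice). In liver they were at 0.01 ± 0.33 and 0.08 ± 0.13. Nop14, which acts in ribosome assembly, had a brain mean of -0.10 ± 0.21 and a liver mean of -0.05 ± 0.12. The transporter-like Mfsd10 had -0.08 ± 0.37 and 0.02 ± 0.43. Sh3bp2, Nat8l and Htra3 also had mice on both sides of 0 in both tissues. The 25 nearest thus lay closer to 0 in brain than Stk32b, whose mean exceeded theirs in size (-0.22 to 0.43).

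The largest means of the neighbourhood came with wide spreads. In brain these were 4930548H24Rik at 1.51 ± 1.87, Slc5a1, Fam53a at -0.58 ± 0.60, the acyl-CoA oxidase Acox3 at 0.43 ± 1.76 and Ccdc96 at 0.34 ± 0.94 (n = 3). In liver they were Tnip2 at -2.06 ± 4.49, Msx1 at -1.12 ± 2.16, Sh3tc1 at -0.52 ± 0.85, Dok7 at 0.45 ± 0.90 and Ccdc96. The values of 4930548H24Rik and Acox3 in brain and of Tnip2 and Msx1 in liver each held 1 ratio over 16 in size, far beyond the other ratios of the arrays. No value of Stk32b, Mrfap1, Nelfa or Tmem128 was such a ratio.

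**Figure D4:**
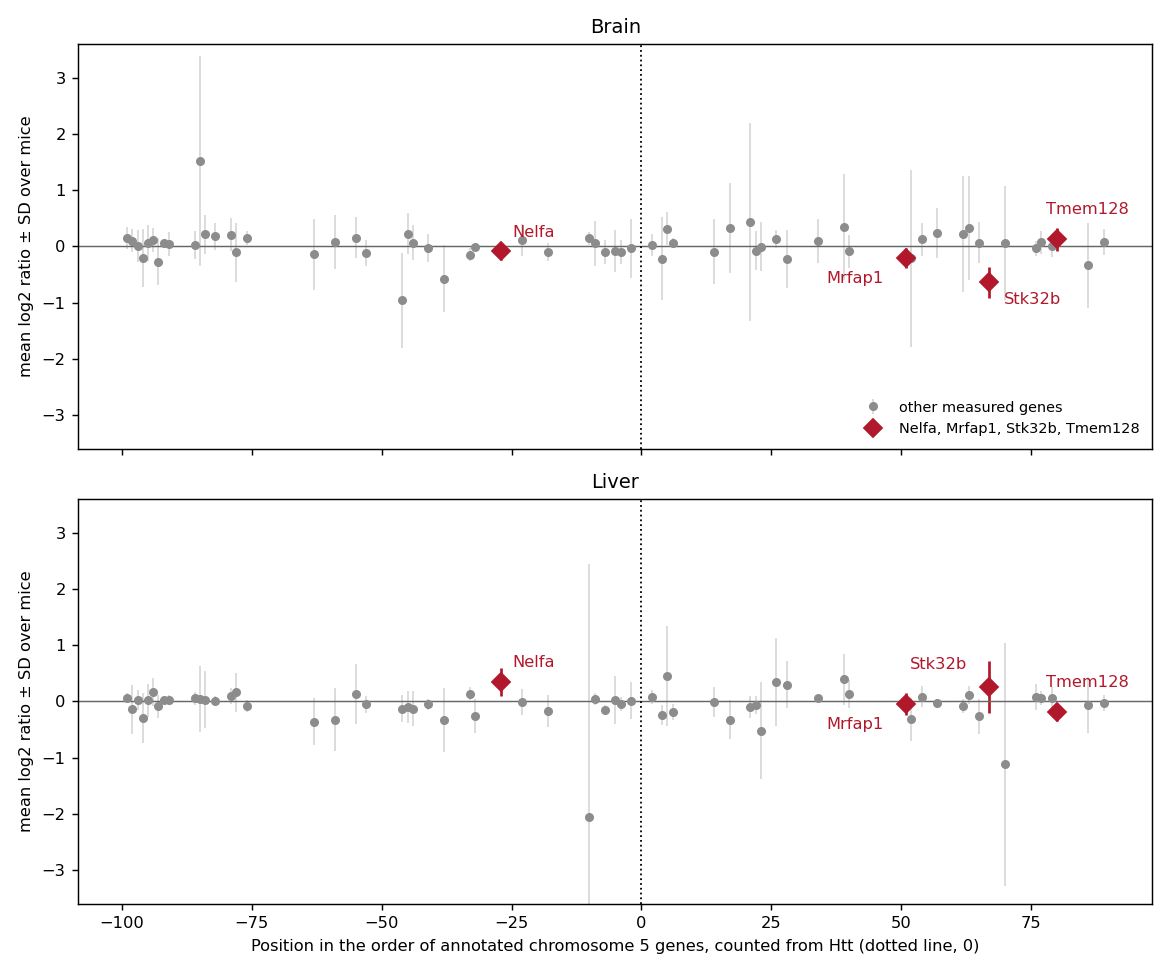
Mean log2 ratio ± SD over mice (y axis) against the position of a gene in the order of annotated chromosome 5 genes counted from Htt (x axis, dotted line at 0), brain above and liver below. Grey points are the other measured genes and red diamonds are Nelfa, Mrfap1, Stk32b and Tmem128; the bar of Tnip2 in liver (-2.06 ± 4.49) runs past the lower edge. Stk32b lies at -0.64 in brain, and the 6 measured genes named beside it lie between -0.04 and 0.33.

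Over the whole array no probe passed limma's test with Benjamini-Hochberg adjustment at 0.05: 0 of 19325 in brain (0%) and 0 of 20127 in liver (0%). At an unadjusted limma p under 0.05 there were 677 of the 19325 probes in brain and 1409 of the 20127 in liver. With no change anywhere a share near 0.05 would be expected, and brain lay below that share and liver above it. When eBayes was run with a variance trend and robust fitting, the counts were 0 and 152. With 0% called, these tests say nothing particular about the 4 genes.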

How the data were processed

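RNA of brain and liver was measured on 2-colour arrays, with dye-swapped pairs against a wildtype pool, per the labels' protocols. The values are normalized log2 ratios as deposited by the authors. Base 2 was assumed. How spots were scanned, filtered, background-corrected and normalized is not given in the sources used here. Array medians ran from -0.128 to 0.246, and 1496 values of 16.492 to 16.987 in size look like ratios against a floor; the next largest was 8.297. The number of arrays limits the precision.

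Direction: over 20599 probes, Spearman's rho between the tissues was 0.397 for the dye deviation and -0.0075 for the pair mean, so the pair mean was taken as the genotype ratio, likely HdhQ111 over wildtype. All ratios over 16 were positive in Cy5 (769) and negative in Cy3 (727). The overall sign stays unstated.

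Of 20794 probes, 12771 have 1 symbol, 0 several and 8023 none. All 12771 matched RefSeq through their Entrez number. With the offset of 11 rows, 12760 rows were named.

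A mouse value needs both arrays, and probes with such values from 3 or more mice were tested. The tests used limma 3.58.1 in R 4.3.3 (lmFit, eBayes), two-sided, with each tissue fitted apart. The procedures were checked on simulated data. Probes of a gene were averaged per mouse. The genes and lists were chosen with earlier results of these data known. Named genes are the 4 genes, the measured ones of the nearest 25 on each side of Htt, the 5 largest means per tissue among the nearest 100, the partner lists and the 3 most alike genes of each. Pairing: both tissues came from the same mice per the labels. Spearman's rho of a mouse's deviations in brain and liver was 0.053, -0.013, 0.084 and 0.020, and -0.021, 0.0094, -0.023 and -0.0099 on average with other mice. Alternatives changed the dye orientation, centring, scaling, floor ratios, missing arrays, naming, window, variance model and mice left out.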

Additional observations from a re-analysis of the deposited data

Results flagged for a closer look

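Among 85 groups of 4 mouse values, 6 had 1 mouse far from the others, and chance gives about 1 in 20. None of the 6 was a value of Stk32b, Mrfap1, Nelfa or Tmem128. Stk32b in brain, however, had only 3 mouse values and so was not examined. Nelfa probe 1 in liver, with no complete pair, was not examined either. Mouse 1 was the far mouse in 5 of the 6 groups: 4930548H24Rik in liver (-0.835), Mxd4 in brain (-0.34) and liver (-0.60), Epc1 in liver (-0.94) and Tnip2 in liver (-8.79), which holds a ratio over 16 in size. Mouse 3 was the far mouse for Rb1 in liver (-0.53).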

How the results depend on the processing

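Of 161 alternatives to the values given, 130 moved a value by less than its spread over mice or left a count within 1.5 times, and 31 moved it more. The dye orientation moved the most. With HdhQ111 RNA in Cy5 only, brain means were -1.64 for Stk32b, -0.50 for Mrfap1 and 0.40 for Tmem128, and liver means were -0.39 for Stk32b, 0.73 for Nelfa, -0.38 for Mrfap1 and 0.00625 for Tmem128, with -0.054 for the liver median of genes flanking Htt. With it in Cy3 only, brain means were -0.25, 0.087 and -0.15 for Stk32b, Mrfap1 and Tmem128, and liver means were 0.90, 0.10, 0.29 and -0.39 for Stk32b, Nelfa, Mrfap1 and Tmem128, while the flanking median turned to -0.033 in brain and 0.016 in liver. The Cy5 mean of Stk32b in brain includes mouse 1, which the main and Cy3 values lack. Over mice 2 to 4, added after the data were seen, that Cy5 mean was -1.02. Both Nelfa means in liver likewise include lone arrays of probe 1, which the main value lacks. These arrays read 2.56 for mouse 3 in Cy5, and 0.52 and -1.04 for mice 2 and 4 in Cy3. Mrfap1 and Tmem128 in brain and Stk32b, Mrfap1 and Tmem128 in liver differed in sign between the orientations, while Stk32b in brain did not.

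With names at offset 0, Stk32b was at -0.34 and Mrfap1 at 0.27 in brain, and Nelfa at 0.0662, Mrfap1 at -0.94 and Tmem128 at 0.10 in liver; these are other spots. Keeping the lone array of mouse 1 put Stk32b in brain at -1.35. Without probe 3, an alternative added after the data were seen, Nelfa in liver was at -0.0208, and in brain the sign turned from -0.09 to 0.033. Removing the dye trend, also added later, moved no value beyond its spread. The median of flanking genes over the nearest 50 on each side was -0.053 in liver and -0.017 in brain, where it thus turned from 0.055.

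Leaving out each mouse in turn gave -0.78 to -0.50 for Stk32b, -0.16 to -0.03 for Nelfa, -0.25 to -0.13 for Mrfap1, 0.03 to 0.17 for Tmem128 and -0.014 to 0.086 for the flanking median in brain. In liver it gave 0.08 to 0.43, 0.28 to 0.46, -0.12 to 0.04, -0.25 to -0.12 and -0.038 to -0.020. The flanking median in brain also crossed 0 without mouse 3, and Mrfap1 in liver without mouse 4. Counts of probes called ran from 0 to 1 in brain, with 1 without mouse 2, and 0 to 0 in liver, and from 0 to 1 for liver minus brain, with 0 without mouse 3 or mouse 4.

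In brain the count called was 3 over 8 arrays with the mouse as a random block, 2 on the Cy5 arrays and 1 with lone arrays kept. For liver minus brain it was 2 without values over 10 in size and 1 with the mouse as a replicate block, against 1 without the block. The cause was not tested. Signal over background, which sets how far a ratio can be trusted, was not examined.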
